A study of Mus musculus with 15 samples.

Results

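Alkal2, Fezf1 and Wfdc18 are 3 genes of the 17271 in the deposited table, chosen by their measured differences in these data, which set mammary tumours of the mouse model 2208L above those of other models. The values that chose them are the contrasts of 2208L with 2151R, T11 and 2225L, so those contrasts are given as a description, with no test of the 3 genes. All 15 samples were mammary tumours grown in BALB/c mice and labelled p53-null, a genotype that lacks the tumour suppressor p53, and the controls of every comparison carried that genotype too. The models were 2151R (4 samples), T11 (1 sample), 2225L (2 samples) and 2208L (8 samples). By their titles, 4 samples of 2208L are PBS samples, 3 are 3day nt samples and 1 is a ROSEN sample, as is 1 of the 2 samples of 2225L. The other sample of 2225L is marked T-Vivo. All PBS titles begin with DH and a number, and all 3day nt titles with KM and a number. In 2151R, 2 samples are marked NT and the other 2 carry marks whose meaning is not given. Age and treatment beyond these marks are not given, and nothing in the labels says whether samples of a model came from separate animals, so p-values measure only the spread between these samples, which may be technical.

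Alkal2, once named Fam150b, encodes a secreted ligand of the receptor tyrosine kinases ALK and LTK. These receptors signal through adaptor proteins to the MAP kinase pathway, and ALK is best known for its part in the developing nervous system and in neuroblastoma. Fezf1 encodes a zinc finger transcription factor of the embryonic forebrain and olfactory system. Wfdc18, also called Expi or WDNM1, encodes a small secreted protein with a WAP domain, the cysteine-rich fold named after whey acidic protein, and is known from the mammary gland. Neither Alkal2 nor Fezf1 is a usual mammary marker, whereas Wfdc18 belongs to mammary epithelium.

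The RefSeq promoter sequences of Alkal2 and Wfdc18 (GRCm38.p6) are shown because the 2 genes, both high in 2208L, have start regions of opposite base composition. Capitals mark a GC box, spelled GGGCGG, in the sequence of Alkal2. In the sequence of Wfdc18 they mark a TATA box, spelled TATAAA. The Alkal2 stretch is chr12:30884074-30884321 on the plus strand, and the Wfdc18 stretch is chr11:83708754-83709003 on the plus strand. Both end just upstream of the annotated start of the gene.
Alkal2: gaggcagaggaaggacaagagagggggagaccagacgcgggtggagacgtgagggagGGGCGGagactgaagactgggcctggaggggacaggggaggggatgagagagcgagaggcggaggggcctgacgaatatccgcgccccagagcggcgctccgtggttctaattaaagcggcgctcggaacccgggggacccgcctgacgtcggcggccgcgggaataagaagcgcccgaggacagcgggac
Wfdc18: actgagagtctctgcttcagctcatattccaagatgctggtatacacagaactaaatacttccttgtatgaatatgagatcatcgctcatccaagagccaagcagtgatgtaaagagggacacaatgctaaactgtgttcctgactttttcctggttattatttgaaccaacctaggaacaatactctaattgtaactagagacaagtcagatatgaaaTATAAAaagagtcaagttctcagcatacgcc
In the 250 bases before its start, Alkal2 had a GC content of 68%, at percentile 87.8 of the 32851 mouse promoter windows of the same length, and held 25 CpG dinucleotides. Wfdc18 had a GC content of 38.4%, at percentile 9.05, and held 2 CpG dinucleotides. The first base of GGGCGG lay 193 bases before the start of Alkal2, and TATAAA lay 31 bases before that of Wfdc18. On either strand, GGGCGG occurs in 32.7% and TATAAA in 12.4% of all these windows of 250 bases. The Fezf1 window (47.6% GC, 12 CpG) also held GGGCGG, but it lies inside the RefSeq span of the gene and is not shown. Another 4 motifs were searched on both strands and were not among the letters of the 3 windows. The AP-1 letters TGANTCA occur in 6.75% of all windows. The STAT letters TTCNNNGAA occur in 7.02%. The E-box CAGCTG occurs in 13% of windows. The ETS letters ACCGGAAGT occur in 0.804%. Such matches describe letters only.

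Each deposited value is on a log2 scale relative to a level of that gene which is not given, so values can be compared between samples for a gene but not between genes. The table holds no counts, so depth is unknown and all errors come from the spread between samples. In 727 genes (4.21%), at least 2 samples share exactly the same value, and the meaning of such a repeated value is not given. As a check of tissue, the 8 listed epithelial markers (Epcam, Cdh1 and 6 keratins) had a mean value from -2.88 to -1.73 in 2151R, of -7.31 in T11, from 2.57 to 2.71 in 2225L and from -0.28 to 1.45 in 2208L. The 1 sample of T11 thus lay lowest on the markers of the labelled tissue. Trp53 lay between -0.29 and 0.29 in 14 of the 15 samples and at 1.63 in replicate 1 of 2225L. Which part of Trp53 is deleted is not given, so its level checks no label.

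Alkal2 was far above every other sample in all 8 tumours of 2208L. Its values in 2208L had a lowest of 11.03, a median of 11.68 and a highest of 12.08. In 2151R the 4 values were -1.56, -1.97, -1.20 and -0.13, and T11 stood at -1.56, a value exactly shared with replicate 1 of 2151R. The 2 samples of 2225L stood at 0 and 2.92. The order of the models was 2208L, 2225L, 2151R and T11, with a gap of 8.11 between the lowest sample of 2208L and the highest of the others, while T11 lay inside the range of 2151R. The mean in 2208L was 11.63 ± 0.43 (SD, n = 8), which is 12.84 above 2151R, 13.18 above T11 and 10.16 above 2225L on the log2 scale. The difference from 2151R ranked first of the 17271 genes.

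Fezf1 followed the same division. In 2208L its values ran from 9.44 through a median of 10.80 to 11.31. It was listed at the repeated value 0 in all 4 samples of 2151R and in T11, so no fold against those 2 models is given. The samples of 2225L stood at 1.76 and -0.97, on either side of that value. The groups did not overlap, with a gap of 7.67 between the lowest sample of 2208L and the highest other sample, and the order of 2151R, T11 and 2225L could not be told beyond the spread of 2225L. The mean of 10.55 ± 0.73 (SD, n = 8) in 2208L was 10.16 above that of 2225L.

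Wfdc18 showed another pattern, since 2225L was high as well. In 2208L its lowest value was 3.59, its median 4.50 and its highest 5.47. The 2 samples of 2225L stood at 1.92 and 1.22. The 4 samples of 2151R stood at -7.34, -7.46, -7.05 and -7.75, and T11 at -11.65. Both 2208L and 2225L were thus above all samples of 2151R and T11, and the lowest sample of 2208L was 1.67 above the highest of 2225L. The mean of 4.44 ± 0.61 (SD, n = 8) in 2208L was 11.84 above 2151R, 16.09 above T11 and 2.87 above 2225L. The difference from T11 ranked first of all genes and that from 2151R second, whereas the difference from 2225L ranked 484.

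**Figure D1:**
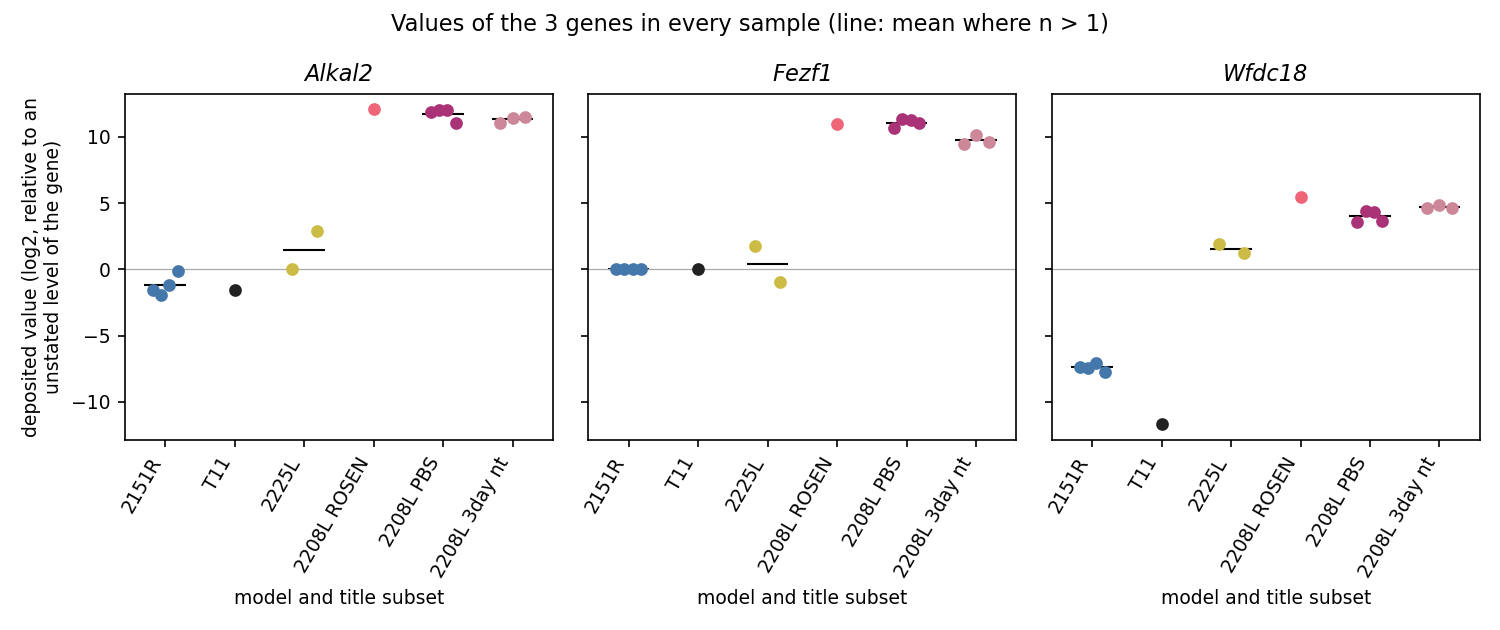
Deposited log2 values of Alkal2, Fezf1 and Wfdc18 (vertical axis, relative to an unstated level of each gene) in each of the 15 samples, by model and title subset; points are samples and lines are means where there is more than 1. Every 2208L point lies above all other points in each panel, with gaps of 8.11, 7.67 and 1.67, and 2225L lies far above 2151R for Wfdc18.

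By the smallest of its differences from the other 3 models, Alkal2 ranked 2nd, Fezf1 3rd and Wfdc18 115th of the 17271 genes. The first place was held by C130093G08Rik, with the same difference of 10.33 from each of the 3 models. Its single values are not given here. Next after Fezf1 came Igf2bp1 (10.04), an RNA-binding protein of embryonic tissue, Timd2 (7.46), Aass (7.35) and Ptprz1 (7.25). Next to Wfdc18 stood Tgtp1 (2.90), D7Ertd443e (2.89), Muc20 (2.87) and Krt7 (2.87), just above and just below its own 2.87. For 600 genes, 3.47% of the table, all 8 samples of 2208L lay above all 7 others. The 3 genes are among them by their choice, and nothing is read from that. Wfdc18 divided 2208L and 2225L together from 2151R and T11 by larger amounts than it divided 2208L from 2225L.

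The difference between 2225L and 2151R is fixed by the contrasts that chose the genes, since their 2151R and 2225L means entered that choice, so it is given as a description with no test. Wfdc18 was 8.97 higher in 2225L than in 2151R, with means of 1.57 and -7.40 and no overlap. The difference was 2.67 for Alkal2, with means of 1.46 and -1.21, and 0.40 for Fezf1, where every sample of 2151R stood at the repeated value. Over all genes, 22.8% were called higher in 2225L, 25.8% lower and 48.6% in either direction, and nothing is read from these shares for the 3 genes. The Alkal2 difference rested mostly on replicate 2 of 2225L, the ROSEN sample, and was 1.21 without it. For Fezf1, it was 1.76 without that sample and -0.97 without the other sample of 2225L.

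Within 2208L, the samples marked PBS and those marked 3day nt differed in Fezf1. The 4 PBS samples had Fezf1 values of 10.67, 11.31, 11.23 and 11.08, and the 3 3day nt samples had 9.44, 10.13 and 9.64. Every PBS sample lay above every 3day nt sample, and the ROSEN sample, at 10.94, lay among the PBS samples. The difference of the means was 1.34 (SE 0.23, n = 4 and 3, limma with Benjamini-Hochberg adjustment, adjusted p = 0.00773). With an eBayes trend in limma the same difference was not called (adjusted p = 0.566).

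Alkal2 was at 11.83, 12.02, 12.03 and 11.06 in the PBS samples and at 11.03, 11.42 and 11.53 in the 3day nt samples. These groups overlapped through replicate 5, the lowest PBS sample, and the difference of 0.41 did not pass the test (SE 0.27, 95% interval -0.24 to 1.06, limma with Benjamini-Hochberg adjustment, adjusted p = 0.270). Without replicate 5 it was 0.64 and passed (adjusted p = 0.0278 in limma). Wfdc18 stood at 3.59, 4.40, 4.36 and 3.65 in the PBS samples and at 4.63, 4.84 and 4.59 in the 3day nt samples. Here every 3day nt sample lay above every PBS sample, but the difference of -0.69 missed the threshold (SE 0.25, 95% interval -1.27 to -0.10, limma with Benjamini-Hochberg adjustment, adjusted p = 0.0702). The ROSEN sample was the highest of all 8 for Wfdc18, at 5.47, and for Alkal2, at 12.08.

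In this comparison, 34% of all genes were called, with 17.4% of all genes higher and 16.5% lower in the PBS samples, and 44.8% of all genes had groups that did not overlap, so 1 call among 3 genes is near the background. Skeletal muscle markers were highest in replicates 6 and 8, both 3day nt samples. The mean value of the 10 listed genes ran from -3.12 to 3.12 in the PBS samples. It was 10.4, 1.74 and 9.85 in the 3day nt samples (replicates 6, 7 and 8), so replicate 7 lay inside the PBS range. In replicate 3 of 2151R it was 7.09, beside a median of -2.55 in that model. Of the 10 muscle genes, 1 was called lower in the PBS samples (Pvalb, limma adjusted p = 0.0262), and 9 were lower at an unadjusted p under 0.05. Of the 4 measured neuron markers of 8 listed, 3 (Tubb3, Syp and Stmn2) were lower in the PBS samples, and the mean over the 4 ran from -2.99 to -1.46 there and from -0.70 to 1.22 in the 3day nt samples. None of the 8 epithelial, 6 macrophage and 5 adipocyte markers was called in limma, with 0, 1 and 3 lower at an unadjusted p under 0.05. The adipocyte list nevertheless had a median difference of -4.73, and its mean value ran from -2.93 to 2.99 (median -2.26) in the PBS samples and from 2.64 to 2.99 in the 3day nt samples. Of 5 Schwann cell markers, 1 was called, Sox10, higher in the PBS samples by 0.53 (limma adjusted p = 0.0308). Fezf1 in replicate 7, the 3day nt sample with the low muscle value, stood at 10.13, below every PBS sample. With replicates 6 and 8 left out together, 3day nt is the single replicate 7, assumed to vary like the PBS samples. The Fezf1 difference then was 0.94 and was not called (adjusted p = 0.199 in limma with Benjamini-Hochberg adjustment), and the calls over all genes were 76 higher and 22 lower, against 3007 and 2857 with all 7 samples. The part of these markers in the differences of the 3 genes was not tested. All PBS titles begin with DH and all 3day nt titles with KM, marks whose meaning is not given. The subset, this mark and the range of library numbers cannot be told apart. In bulk tumour RNA, fewer cells of a type and less RNA per cell cannot be told apart either.

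**Figure D2:**
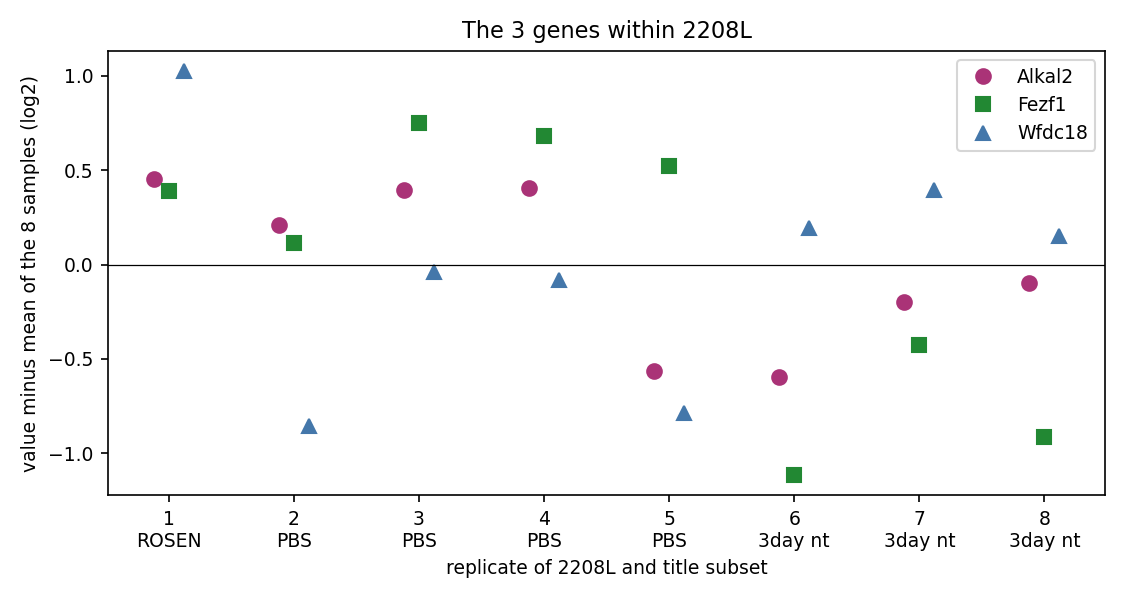
Value of each gene minus its mean over the 8 samples of 2208L (vertical axis, log2) for each replicate and title subset (horizontal axis); each point is 1 sample. Fezf1 (squares) lies below 0 in all 3day nt samples and above 0 in all others, while Wfdc18 (triangles) lies above 0 in all 3day nt samples and below 0 in all PBS samples.

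Around Alkal2, 11 of the 13 listed genes of the ALK pathway were measured, and 2 were called higher and 1 lower in 2208L than in 2151R, where 22.7% of all genes were called higher and 26.1% lower (48.8% in all). The receptor Ltk was among the higher genes. Ltk stood at -0.92, -0.51, -0.72 and -2.86 in 2151R, at -1.43 in T11 and at 0 and 1.78 in 2225L, against a lowest value of 2.08, a median of 2.35 and a highest of 3.03 in 2208L. All 8 samples of 2208L thus lay above all others. The difference from 2151R was 3.69 (SE 0.41, limma with Benjamini-Hochberg adjustment, adjusted p = 7.69e-06) and that from 2225L was 1.55 (SE 0.53, adjusted p = 0.0396). The latter call was lost when any 1 of replicates 1, 2, 3, 4, 6 and 7 of 2208L or replicate 1 of 2225L was left out, and without that sample of 2225L the difference was 0.66 (adjusted p = 0.461 in limma). Alk and the second ligand gene Alkal1 were not analysed here.

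Ptprz1, a receptor tyrosine phosphatase that binds the growth factors pleiotrophin and midkine, was the other higher gene. It stood from 7.30 to 8.18 in 2208L, from -0.61 to 0 in 2151R, at -5.27 in T11 and at 2.71 and -1.43 in 2225L. The groups were far apart, with differences of 8.22 from 2151R (SE 0.53, limma with Benjamini-Hochberg adjustment, adjusted p = 3.33e-08) and 7.25 from 2225L (SE 0.68, adjusted p = 6.13e-06). Midkine itself (Mdk) was lower in 2208L than in 2225L, with a difference of -6.30 on the log2 scale (SE 0.59, limma adjusted p = 5.82e-06), while its difference of 0.83 from 2151R was not called (limma adjusted p = 0.151). Pleiotrophin (Ptn) differed by -0.81 from 2151R and -1.76 from 2225L, neither called. The adaptor Frs2 was the lower gene against 2151R, at -1.10 (SE 0.29, limma adjusted p = 0.00660). Against 2225L, 2 of the 11 were higher (Ltk and Ptprz1) and 2 lower (Mdk and Irs2), where 17.3% of all genes were higher and 15.6% lower (32.9% in all). The median difference of the list was 0.47 against 2151R and 0.22 against 2225L, beside -0.10 and 0.04 over all genes. The difference from T11 was at least 2 log2 units up for 2 genes and down for 1, where 8.01% of all genes were up and 8.88% down by that much.

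Genes that respond to MAP kinase signalling moved both ways. All 14 listed were measured, and 6 were higher and 5 lower in 2208L than in 2151R, where 22.7% and 26.1% of all genes were. The largest rises were those of Phlda1, by 2.74 (SE 0.15, limma adjusted p = 7.15e-09), and Dusp4, a phosphatase of MAP kinases, by 1.79 (SE 0.54, limma adjusted p = 0.0137). Dusp4 averaged 2.08 in the PBS samples but -0.11 in the 3day nt samples (limma adjusted p = 0.00378), against -0.57 in 2151R. The AP-1 gene Fosl1 was lower with -7.50 (SE 0.75, limma adjusted p = 2.80e-06), and the phosphatase gene Dusp5 with -1.60 (SE 0.17, limma adjusted p = 5.99e-06). Against 2225L the list held 5 higher and 0 lower genes (1 lower at an unadjusted p under 0.05 in limma), beside 17.3% and 15.6% of all genes, and its members included Fosl1 at 2.99 (SE 0.97, limma adjusted p = 0.0311) and Dusp5 at 0.98 (SE 0.22, limma adjusted p = 0.00474). Both of those calls were lost without replicate 2 of 2225L, with differences of 0.83 and 0.76. The median difference was 0.14 against 2151R and 0.45 against 2225L.

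In the WAP domain family of Wfdc18, 8 of 20 listed genes were measured, and 3 were higher and 0 lower in 2208L than in 2151R in limma, with 0 lower at an unadjusted p under 0.05 as well. The 3 called are 37.5% of the 8, beside 48.8% of all genes. These were Wfdc2, a secreted protein of epithelia, higher by 6.86 (SE 0.44, limma adjusted p = 3.16e-08), Slpi, a secreted inhibitor of neutrophil elastase, higher by 6.62 (SE 0.52, limma adjusted p = 2.37e-07), and Wfdc3, higher by 1.63 (SE 0.52, limma adjusted p = 0.0187). Slpi stood from 4.59 to 6.26 in 2208L, from -1.82 to -0.38 in 2151R, at -3.16 in T11 and at -0.09 and 2.92 in 2225L. No sample of another model reached the 2208L range, and Slpi was also 3.92 above 2225L (SE 0.67, limma adjusted p = 0.000651). Other family members were lower in 2208L than in 2225L: Wfdc12 with -10.15 (SE 0.93, limma adjusted p = 5.10e-06), Wfdc13 with -5.65 (limma adjusted p = 0.00158) and Wfdc3 with -2.91 (limma adjusted p = 0.00484). Against 2225L this made 1 gene higher and 3 lower of 8, beside 17.3% and 15.6% of all genes, with a list median of -0.45, whereas the median against 2151R was 0.54. Wap itself was not analysed here.

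The neighbours of Wfdc18 on chromosome 11, Wfdc17 and Wfdc21, are members of the same family. Neither differed past the threshold from 2151R, with values of -0.38 (SE 0.49, limma adjusted p = 0.546) and -0.02 (SE 0.88, limma adjusted p = 0.987), nor from 2225L, with values of 0.36 (SE 0.63) and 2.06 (SE 1.14). With single samples left out, all 4 of these differences changed sign. That of Wfdc21 from 2225L ran from -0.11 to 4.24, and without replicate 2 of 2225L it was called (limma adjusted p = 0.0296).

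**Figure D3:**
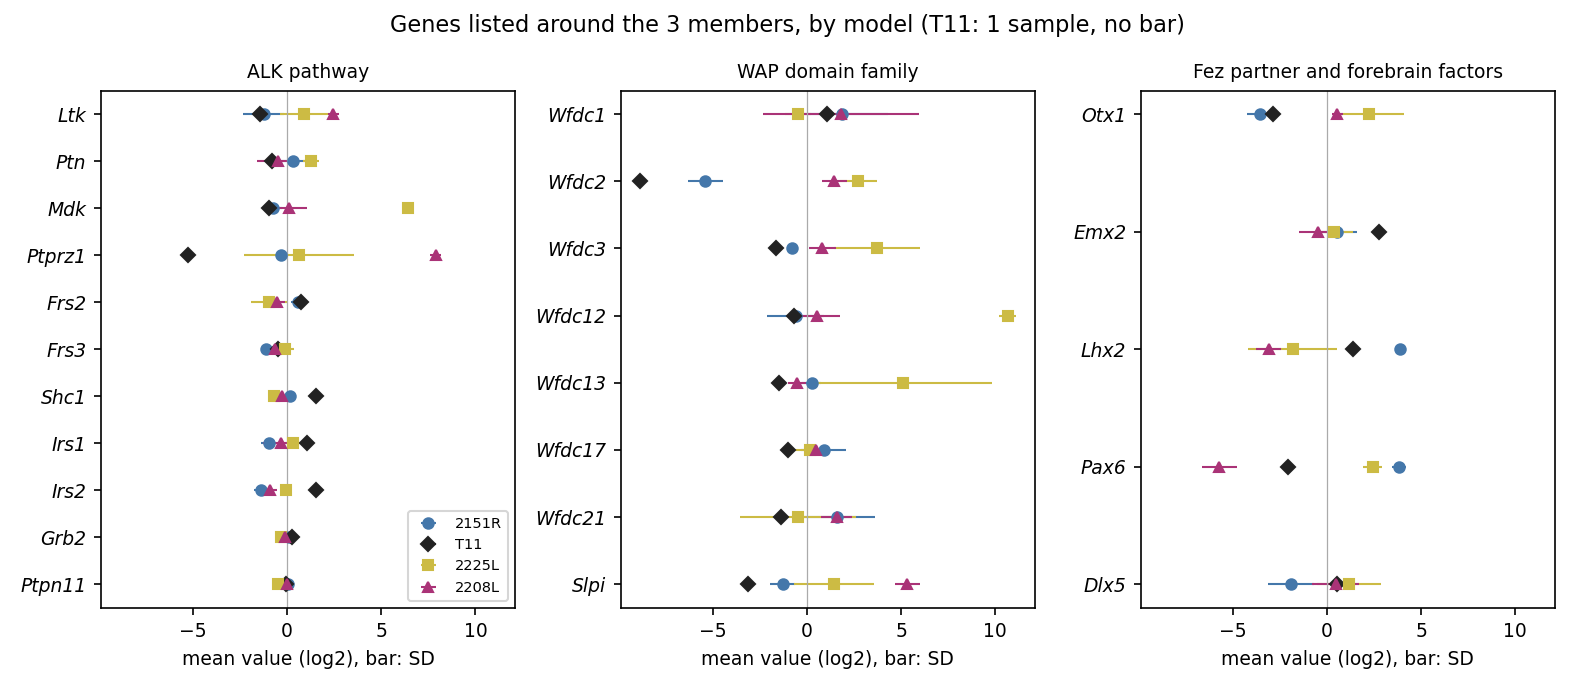
Mean deposited value (horizontal axis, log2) of measured genes of the ALK pathway, the WAP domain family and the forebrain factors in each model; bars are SDs and T11 is 1 sample without a bar. In 2208L (triangles), Ptprz1 and Slpi stand to the right of all other models, while Pax6 stands to the left of them.

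Forebrain transcription factors, listed beside Fezf1, moved both ways against 2151R. Of 15 listed genes, 6 were measured, and 2 were higher and 3 lower in 2208L than in 2151R, while 0 were higher (0 also at an unadjusted p under 0.05 in limma) and 3 lower than in 2225L. Of all genes, 22.7% were higher and 26.1% lower than in 2151R, and 17.3% and 15.6% than in 2225L. Otx1 was higher than in 2151R by 4.14 (SE 0.40, limma adjusted p = 2.02e-06) and lower than in 2225L with -1.65 (SE 0.52, limma adjusted p = 0.0262), a call lost without replicate 1 of 2225L (-0.32). Dlx5 was higher than in 2151R by 2.37 (SE 0.73, limma adjusted p = 0.0155). It averaged 1.23 in the PBS samples but -0.98 in the 3day nt samples (limma adjusted p = 0.00315). The 3day nt values, from -1.37 to -0.52, lay inside the 2151R range of -3.39 to -0.41, and T11 stood at 0.52. Pax6, from -6.86 to -4.09 in 2208L, was lower with -9.53 against 2151R (SE 0.45, limma adjusted p = 1.48e-09) and -8.15 against 2225L (SE 0.58, limma adjusted p = 4.94e-07). Lhx2 was also lower than in 2151R, with -6.96 (SE 0.52, limma adjusted p = 1.43e-07). The list median was -3.05 against 2151R and -1.47 against 2225L. Fezf2 and Hes5, the closest relative of Fezf1 and a known target of it, were not analysed here.

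Mammary differentiation genes were read beside Wfdc18. Of 13 listed milk and alveolar genes, 8 were measured, and 5 were higher and 1 lower in 2208L than in 2151R, and 5 higher and 0 lower than in 2225L (1 lower at an unadjusted p under 0.05 in limma). Of all genes, 48.8% were called against 2151R and 32.9% against 2225L. Elf5, the transcription factor of alveolar cells, was higher than in 2151R by 5.39 (SE 0.23, limma adjusted p = 6.89e-10) but not called against 2225L (-0.66, limma adjusted p = 0.116). The casein gene Csn1s1 was higher than in 2151R by 3.83 (SE 0.89, limma adjusted p = 0.00298). Btn1a1, butyrophilin of the milk fat globule, was the lower gene, with -1.43 (SE 0.54, limma adjusted p = 0.0432). Against 2225L, Btn1a1 was higher by 3.30 (SE 0.70, limma adjusted p = 0.00288), while Csn1s1 was not called (2.79, limma adjusted p = 0.0795). The list median was 2.14 against 2151R and 2.65 against 2225L.

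Epithelial markers split the models as Wfdc18 did for some members. Krt7 was 7.23 higher in 2208L than in 2151R (SE 0.41, limma adjusted p = 9.27e-09), Epcam 6.58 (SE 0.26, limma adjusted p = 2.79e-10), Krt8 6.27 (SE 0.36, limma adjusted p = 1.11e-08) and Cdh1 5.84 (SE 0.18, limma adjusted p = 3.63e-11). Krt5 and Krt19 were lower than in 2151R, with -4.73 (limma adjusted p = 0.00314) and -3.61 (limma adjusted p = 0.00567). Epcam, Krt8 and Cdh1 were not called against 2225L, where Krt7 was higher by 2.87 and the basal keratins Krt5 and Krt14 were lower with -9.81 and -4.50. Of the 8 markers, 6 were higher and 2 lower than in 2151R, and 1 was higher and 3 lower than in 2225L, beside 48.8% and 32.9% of all genes called. The part of epithelial content in the Wfdc18 values was not tested.

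In the PBS samples against the 3day nt samples, the listed genes gave 4 higher and 0 lower of 11 for the ALK pathway (Frs2, Irs1, Shc1 and Ptpn11), and 4 and 0 of 14 for the MAP kinase response. The forebrain list gave 1 and 0 of 6 (Dlx5), the milk list 2 and 0 of 8 (Csn3 and Xdh), and the WAP family 0 and 0 of 8. Of all genes, 17.4% were higher and 16.5% lower. At an unadjusted p under 0.05 in limma, 1 gene of the MAP kinase list and 1 of the WAP family were lower, and 0 of the other lists. Ltk differed by -0.37 and Ptprz1 by 0.16, neither called, and Slpi by 0.76 (SE 0.34, limma with Benjamini-Hochberg adjustment, adjusted p = 0.124).

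The genes whose values were most like those of the 3 genes were found by Pearson correlation over the 15 samples. The search covered 4305 genes with an SD of at least 1. Symbols of Gm and a number, or ending in Rik, were left out, so C130093G08Rik could not appear. These correlations describe samples of 4 models and mostly rank genes by how they divide the models, and they carry no test. Nearest to Alkal2 were Plppr3 (r = 0.991), Mageb16 (0.989), Sh3yl1 (0.985), Igf2bp1 (0.983) and Ing3 (0.983). Nearest to Fezf1 were Ing3 (0.991), Chit1 (0.989), Timd2 (0.986), Plppr3 (0.985) and Cradd (0.983). Alkal2 and Fezf1 thus share Plppr3 and Ing3, and had an r of 0.972 with each other. Nearest to Wfdc18 were Fxyd3 (0.998), an epithelial regulator of the sodium pump, Grhl1 (0.995), a transcription factor of epithelia, Slc5a9 (0.993), Tmem102 (0.993) and Stap2 (0.993). The correlation of Wfdc18 was lower with Alkal2 (r = 0.895) and Fezf1 (0.842), at ranks 223 and 287 of likeness to them. Fxyd3 averaged -5.46 in 2151R, -8.01 in T11, 0.39 in 2225L and 1.60 in 2208L, the same order as Wfdc18.

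The genes next to Fezf1 on chromosome 6 were also higher in 2208L. Of the 3 nearest measured genes on each side, all 6 were higher than in 2151R and 5 were higher than in 2225L. The shares of all genes called higher were 22.7% and 17.3%. Medians of the 6 were 7.63 and 4.17. Towards lower coordinates these were Aass, an enzyme of lysine breakdown (8.79 above 2151R and 7.35 above 2225L), Ptprz1 (8.22 and 7.25), which is also on the ALK list, and Fam3c (4.65 and 4.98). Towards higher coordinates they were Cadps2 (7.82 and 3.09), Ndufa5 (5.48 and 3.36) and Lmod2 (7.43 and 1.99, the second not called).

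A longer stretch, from Tspan12 to Tmem229a and chosen after its values were seen, held 11 genes besides Fezf1. Of these, 9 were at least 3 log2 units above 2151R and 8 above 2225L. In each comparison 10 were called higher, beside 22.7% of all genes against 2151R and 17.3% against 2225L. Ing3 (3.55 above 2151R and 3.52 above 2225L), Wasl (3.48 and 4.73) and Tmem229a (8.61 and 9.04) lay in it, while Tspan12 (1.84 and 2.08) and Cped1 (-0.87 and 1.63) were under 3 units in both comparisons. Cped1 was the gene called lower than in 2151R, and Lmod2 was the gene not called against 2225L. Among the next 20 genes beyond Tmem229a the median was 0.53 and 0.39, with 1 gene at least 3 units up in each comparison, and 10 were still called higher than in 2151R and 2 than in 2225L. The 19 genes on the other side had a median of -0.47 against 2151R but 3.78 against 2225L, so that side differed between the comparisons. Against 2225L, 11 of them were at least 3 units up, 12 were called higher and 0 lower, so the rise ran past Tspan12 there. Against 2151R, 2 were at least 3 units up, 3 were called higher and 6 lower.

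The median around Alkal2 on chromosome 12 was smaller. Of its 6 nearest genes, 4 were higher than in 2151R and 4 than in 2225L, beside 22.7% and 17.3% of all genes. Their median against 2151R was 0.95. Sh3yl1, which lies 1 gene beyond Acp1, was the largest, at 4.46 above 2151R (SE 0.20, limma adjusted p = 7.60e-10) and 2.81 above 2225L (SE 0.25, limma adjusted p = 4.28e-06). Sh3yl1 ran from 2.33 to 3.49 in 2208L, from -1.83 to -1.33 in 2151R and stood at 0.08 and 0.14 in 2225L and -1.32 in T11, with no overlap. Tmem18 (1.13), Acp1 (0.99) and Eipr1 (0.91) were the other 3 higher than 2151R. Alkal2 and Acp1 have RefSeq spans that overlap, and no source used here states strand-aware counting, so reads of the shared part could not be told apart.

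Of the 6 genes nearest to Wfdc18, 0 were higher and 0 lower than in 2151R in limma, with 1 higher at an unadjusted p under 0.05 and a median of -0.09, and 1, Heatr6, was higher than in 2225L (1.15, SE 0.33, limma adjusted p = 0.0178). The chemokine genes Ccl3 and Ccl4 on one side differed by -0.57 and 0.88 from 2151R, neither called. Over 25 genes on each side, a window chosen after the data were seen, the calls against 2151R were 23 higher and 8 lower of 50 for Fezf1, 27 and 4 for Alkal2, and 8 and 10 for Wfdc18, where 22.7% and 26.1% of all genes were called. The 36% called around Wfdc18 lie below the 48.8% of all genes. Against 2225L they were 24 and 0, 28 and 5, and 15 and 1, beside 17.3% and 15.6% of all genes.

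**Figure D4:**
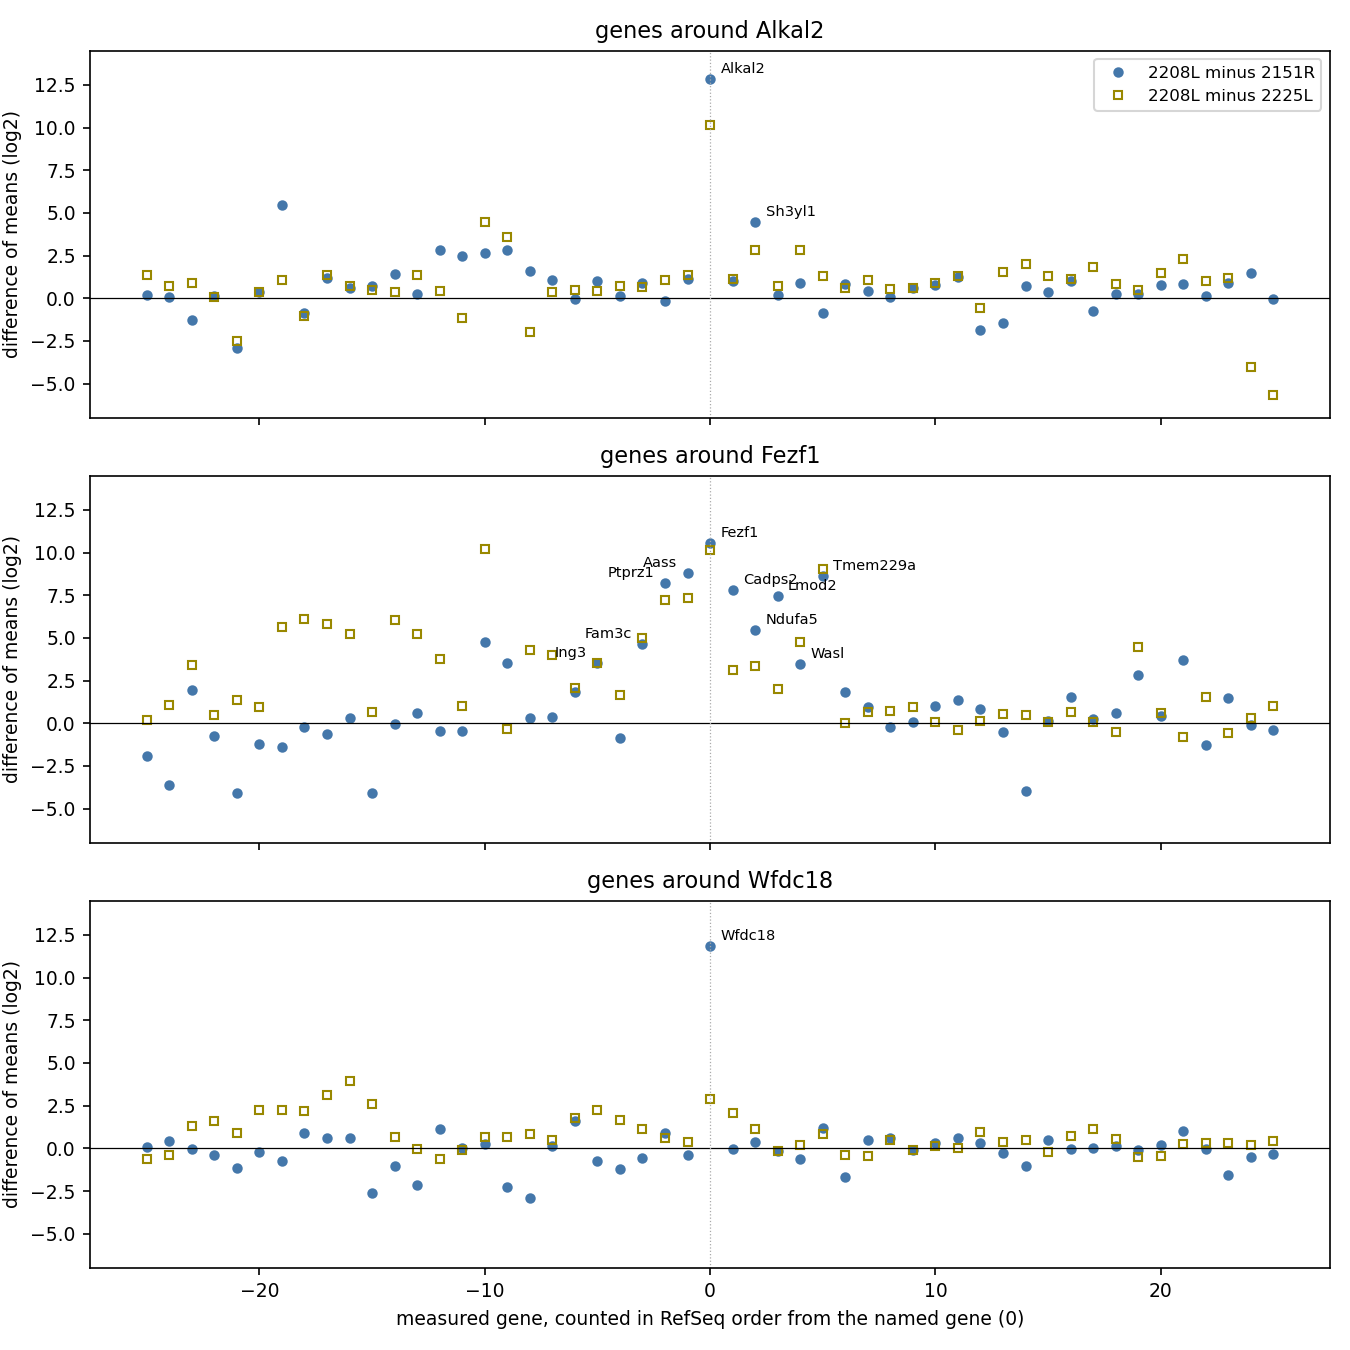
Difference of means (vertical axis, log2) of 2208L from 2151R (filled circles) and from 2225L (open squares) for the 25 measured genes on each side of Alkal2, Fezf1 and Wfdc18, counted in RefSeq order (horizontal axis). The genes from Fam3c to Tmem229a stand high around Fezf1, whose own circle is drawn against the repeated value of 2151R, Sh3yl1 stands at 4.46 against 2151R beside Alkal2, and the circle of Wfdc18 lies above those of all 50 genes around it.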

How the data were processed

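Poly(A) RNA was sequenced from 15 mouse mammary tumours, per the labels' protocols. A single table with 17271 genes was deposited by the authors, in log2 units; that each gene is relative to a median is taken from the table's name, and the set of samples behind that median and any added offset are not given in the sources used here. STAR, Salmon and mm10 are named in the submitters' processing notes with no role. Samples were grouped by title. Replicate numbers follow accession order and pair no samples. All genes were fitted with limma 3.58.1 in R 4.3.3 (lmFit, eBayes, Benjamini-Hochberg, threshold 0.05): a mean for each model over 15 samples, and a fit of 7 samples for PBS against 3day nt. T11, with 1 sample, was described by differences of at least 2 log2 units. The fits were tested on simulated data in which 200 of the 17271 genes were given known changes. Of changes of 1 log2 unit, 46% were recovered for PBS against 3day nt and 21% for 2225L against 2151R. For 2208L, 44% were recovered against 2151R and 18% against 2225L. With 2 log2 units these shares were 80%, 59%, 81% and 65%, so a gene not called may still differ. In the data themselves, 32.9% to 48.8% of all genes were called, so recovery there may differ from these shares.

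The 3 genes and the gene lists were chosen with earlier results of these data known. Named genes are the 3 genes, the 2 largest called differences from 2151R in each direction of each list, receptors and direct partners, the 5 genes most like each gene, the 3 nearest measured genes on each side, and neighbours in the ranking; other genes named were chosen after their values were seen, and a few listed or neighbouring genes are counted but not reported by name here. By symbol, 16183 genes (93.7%) were placed in the RefSeq annotation of GRCm38.p6, whose chromosome coordinates are those of mm10, and starts were compared with GENCODE M21. Alternatives were scaling by sample medians, other variance models, left-out genes, samples or models, and the library prefix as a term.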

Additional observations from a re-analysis of the deposited data

Results flagged for a closer look

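Extreme single samples were looked for in groups of 4 to 10 samples with Dixon's ratio, over 61 genes and 181 groups. It marked 15 groups, where chance marks about 1 in 20, or 9.05, and it marked none of Alkal2, Fezf1 and Wfdc18.

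In 2151R, a sample stood far from the other 3 for 4 genes. Irs2 was at -1.99 in replicate 3, Wfdc13 at 0.98 in replicate 4, Chit1 at -0.25 in replicate 1 and Ccl3 at 1.79 in replicate 2. For Wfdc13 and Chit1, the others shared the repeated value 0, so the ratio is 1 whatever the size of the gap, and 2 of the 15 marks are of this kind.

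In 2208L as a whole, replicate 1, the ROSEN sample, was the extreme one for Irs2 (-1.80) and Igf2bp1 (8.70). Wfdc21 was at -0.19 in replicate 3, below a range of 1.35 to 2.66 in the others, and Dusp6 at -0.22 in replicate 5, below 0.35 to 0.59.

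Within the 4 PBS samples, replicate 5 was the lowest for Dusp6 (-0.22), Otx1 (0), Sh3yl1 (2.59, the others from 3.08 to 3.17), Eipr1 (0.11) and Heatr6 (0.36). Replicate 2 was the highest for Btn1a1 (2.86) and Wasl (4.28, the others from 4.02 to 4.06). Replicate 5 was also the lowest PBS sample for Alkal2, at 11.06.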

How the results depend on the processing

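No paired analysis was possible because no replicate number in the titles is shared between groups. Apart from left-out single samples, 292 values kept their direction and side of the threshold, 10 lost the call or fell to a count over 1.5 times smaller, 1 moved and 2 changed sign. The Fezf1 difference between PBS and 3day nt kept its size with an eBayes trend (1.34) but lost its call (adjusted p = 0.566 in limma), and was 0.94 (adjusted p = 0.199) without replicates 6 and 8, chosen after the data were seen. That leaves 1 3day nt sample, assumed to vary like the PBS samples, and 76 genes higher and 22 lower; the fewer samples lower such counts by themselves. The Alkal2 difference of 2225L from 2151R, a description with no test, was 2.67 with the trend and with only those 2 models fitted. Without genes that have a repeated value, the listed genes lower than in 2225L fell from 8 to 5, and Alkal2 and Fezf1 have no value there. Keeping only samples titled NT, nt or PBS, Alkal2 was 12.22 above 2151R, and T11 and 2225L gave no value. Wfdc21 against 2151R turned from -0.02 to 0.036 with each sample centred on its median and to 0.0096 without replicates 6 and 8. The cause of these changes was not tested.

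Leaving out single samples, PBS against 3day nt called 1362 to 3988 genes higher and 1017 to 3111 lower, the fewest without replicate 8 (1362 and 1017) and 6 (1723 and 1227). The counts lower also fell without replicate 2 (1844) and replicate 3 (1780). Alkal2 ran from 0.26 to 0.64, Fezf1 from 1.19 to 1.53 and Wfdc18 from -0.82 to -0.55, with the Fezf1 call kept each time. In 2225L against 2151R, Alkal2 ran from 1.21 to 4.13, Fezf1 from -0.97 to 1.76 and Wfdc18 from 8.62 to 9.32. Alkal2 stood 8.70 to 11.63 and Fezf1 8.79 to 11.52 above 2225L. Wfdc17 and Wfdc21 changed sign: from -0.69 to 0.18 and from -0.87 to 0.68 against 2151R, and from -0.39 to 1.12 and from -0.11 to 4.24 against 2225L. Dusp6 against 2225L ran from -0.48 to 0.40. T11 has 1 sample and 2225L has 2, and depth is unknown. A shared library range, DH or KM mark or ROSEN mark cannot be told apart from the groups.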
